A study of Homo sapiens with 6 samples.

Results

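The collagen genes were followed across the knockdown of the fusion oncogene EWSR1::FLI1 in A673 cells, an Ewing sarcoma cell line. They were taken as every row whose symbol is COL, a number, A and a number, which gave 44 genes of the 26364 gene symbols listed. All 6 RNAseq libraries come from the same engineered derivative, A673/TR/shEF, which carries a tetracycline repressor and a doxycycline-inducible shRNA against the chimeric mRNA, under selection with blasticidin and zeocin. The control cells carry this shRNA too: 3 libraries are untreated (EWSR1::FLI1 high or control, replicates 1 to 3) and 3 were made after 72 h in 1 µg/mL doxycycline (EWSR1::FLI1 low or knockdown, likewise 1 to 3), so an effect of doxycycline and one of the shRNA cannot be told apart. The sample titles number the libraries as experiments, whereas the deposited design speaks of independent clones of the same line. Which of these they are was not settled, and p-values measure only the spread between these libraries, which may be technical.

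Collagens are secreted or membrane-bound matrix proteins whose chains wind around each other into a triple helix of repeated glycine-led triplets. Fibrillar collagens assemble into the rope-like fibrils of connective tissue, type IV collagens into the sheet of the basement membrane, and the FACIT collagens (fibril-associated collagens with interrupted triple helices) sit on the surface of fibrils. Type VI chains form beaded microfilaments near cells, and the remaining types include short-chain networks, anchoring fibrils, multiplexins and transmembrane collagens. Ewing sarcoma is classically a small round cell tumor with little matrix of its own, and mesenchymal cells such as fibroblasts and osteoblasts are the best known producers of fibrillar collagen. By class, the 44 genes comprised 11 fibrillar, 6 basement membrane, 10 FACIT, 5 beaded filament, 3 short-chain network, 2 multiplexin, 4 transmembrane and 1 anchoring fibril gene, and 2 others.

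Expression is given as FPKM (fragments scaled to transcript length and to a size factor of each library), the unit the authors deposited. It is meant to allow levels of genes of different length to be set side by side. The size factors, recovered as described below, did not follow the number of reads on genes. EWSR1::FLI1 low replicate 1 had 0.951 with 6980361 reads, and EWSR1::FLI1 high replicate 3 had 0.829 with 8359615 reads. The libraries held between 6980361 and 16658933 reads on genes. FLI1, the 3′ part of the targeted fusion mRNA, was at 11.3, 12.7 and 14.2 FPKM without and 2.91, 4.29 and 3.68 FPKM with doxycycline, and fell by 1.57 on the log2 scale (limma, adjusted p = 0.000676). The 6 Ewing sarcoma markers (CD99, NKX2-2, NR0B1, STEAP1, FLI1 and PAX7) summed to 324 to 339 FPKM in control and 132 to 139 FPKM in knockdown libraries. All 6 were lower in each knockdown library than in each control library, as were 23.6% of all genes tested. CD99 and PAX7 were not called lower (limma, adjusted p = 0.067 and 0.0545). CD99 was still at 84.2 to 105 FPKM with doxycycline, against 118 to 144 without, whereas NKX2-2 was at 1.29 to 1.57 against 3.92 to 5.77 FPKM. The epithelial markers EPCAM, CDH1, KRT5 and KRT14 summed to 0.747 to 1.88 FPKM in EWSR1::FLI1 high and 1.17 to 1.602 in EWSR1::FLI1 low libraries. Of the hematopoietic markers, PTPRC, CD3E and LYZ were under 1 FPKM in every library, and CD68 was at 5.39 to 8.72 FPKM in control and 4.67 to 19.2 FPKM in knockdown libraries. The 4 endothelial markers summed to 0.881 to 1.304 and 7.36 to 9.49 FPKM, mostly from KDR (0.268 to 0.497 and 5.195 to 8.37 FPKM; limma, adjusted p = 0.000108). PECAM1 was at 0.278 to 0.366 and 0.879 to 1.56 FPKM, without overlap but not called (limma, adjusted p = 0.0333), and CDH5 and VWF were at 0.102 to 0.227 and 0.0726 to 0.518 FPKM. The part of these markers in the results was not tested. In such bulk libraries, more collagen-expressing cells and more collagen RNA per cell cannot be told apart. EWSR1::FLI1 low replicate 1 stood apart: its median over all symbols was 1.096 FPKM against 0.667 to 0.847 in the others, and among genes averaging under 0.5 FPKM it held the highest value for 49.5% of 8984 genes.

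Collagen genes of several classes were higher after knockdown, led by COL6A3, COL11A1 and COL1A2, and no collagen gene was called lower. Genes averaging at least 0.5 FPKM were tested with limma on log2(FPKM + 1), knockdown against control, and called at an adjusted p under 0.01 over the 15504 genes tested. Log2 fold changes refer to FPKM + 1 unless another scale is named, so those of genes with low FPKM are understated, and ratios of means are of FPKM itself. Of the 44 collagen genes, 32 could be tested, and 13 were called higher (40.6% of those tested), against 4.51% of all genes tested (7.88% were called in either direction). None was called lower, against 3.37% of all genes. At an unadjusted p under 0.05 only COL21A1 was lower, and limma-voom on recovered reads also called 0 lower, whereas limma with sample quality weights called COL21A1 and COL25A1 lower. These weights lean on EWSR1::FLI1 low replicate 2 (2.79, against 0.172 and 0.463 for replicates 1 and 3). The log2 fold change was above 0 for 29 of the 32 genes (45.2% of all genes tested), and its median was 0.90, against -0.048 over all genes. In 24 of the 32, the lowest knockdown library exceeded the highest control library (17.5% of all genes), and in 1 all 3 lay below (23.6% of all genes). The filter used the mean over all 6 libraries. COL15A1, COL19A1, COL22A1, COL26A1 and COL28A1, under 0.5 FPKM on average in controls, thus passed only through their knockdown values. All have a fold change above 0, and all but COL28A1 are among the 24, but none was called. KDR and PECAM1 passed likewise. Of the 13 calls, 6 also had a log2 fold change over 2.5, which is 18.8% of the 32 genes tested, against 0.813% of all genes tested. The fit was repeated 6 times, leaving out a different library each time, and 8 of the 13 genes were called in all 6 repeats. COL4A2, COL6A1, COL6A2, COL8A1 and COL13A1 were not, and the count fell to 8 without any 1 of the EWSR1::FLI1 high replicates or without EWSR1::FLI1 low replicate 3. It was 11 without EWSR1::FLI1 low replicate 2 and 17 without EWSR1::FLI1 low replicate 1, where COL21A1 was called lower.

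**Figure D1:**
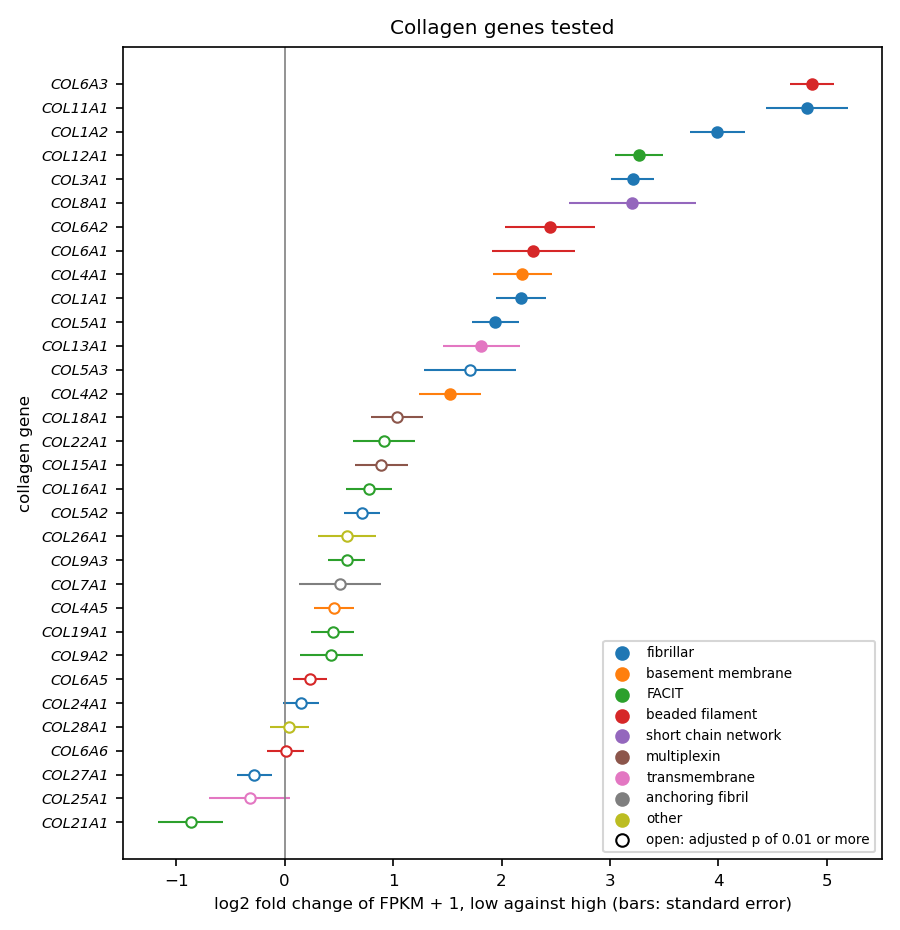
Log2 fold change of FPKM + 1 (with against without doxycycline, x axis) of the 32 collagen genes tested (y axis), with the standard error as a bar, colored by class and filled where the adjusted p was under 0.01. The 13 filled points lie between 1.52 for COL4A2 and 4.86 for COL6A3, and the 3 points below 0 are all open.

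Among the fibrillar genes, COL1A1, COL1A2, COL3A1, COL5A1 and COL11A1 rose. Of 11 fibrillar genes 9 were tested, 5 were called higher and none lower, with a median log2 fold change of 1.94. COL1A2 (ENSG00000164692, chromosome 7, 94024207 to 94060539, forward strand, GRCh37), which encodes the α2 chain of type I collagen, the main protein of bone and tendon, was at 1.87, 1.04 and 1.03 FPKM without doxycycline (replicates 1, 2 and 3) and reached 50.2, 27.6 and 31.5 FPKM with it. The groups were far apart, 106, 45 and 43 reads against 2414, 1224 and 2658, the ratio of the means was 27.8, and the log2 fold change was 3.99 ± 0.25 (SE; limma, adjusted p = 5.03e-05). COL1A1 (ENSG00000108821, chromosome 17, 48261462 to 48278993, reverse strand), encoding the α1 chain of the same fibril, was at 1.77, 1.31 and 2.85 FPKM without and 14.9, 12.2 and 10.01 FPKM with doxycycline. It stayed below COL1A2 in every EWSR1::FLI1 low library, and its log2 fold change was 2.18 ± 0.23 (SE; limma, adjusted p = 0.0004201), smaller than that of COL1A2. COL3A1 (ENSG00000168542, chromosome 2, 189839099 to 189877472, forward strand) encodes the chain of type III collagen, found with type I in extensible tissues such as skin and vessels. It was at 23.9, 20.2 and 21.3 FPKM without doxycycline (replicates 1, 2 and 3) and reached 262, 191 and 184 FPKM with it, 21.8 ± 1.91 against 212 ± 43.3 FPKM (SD, n = 3 in each group). This was the highest collagen level of the EWSR1::FLI1 low cells, with a log2 fold change of 3.21 ± 0.20 (SE; limma, adjusted p = 4.54e-05) and a range from 3.05 to 3.30 over the 6 repeats without 1 library.

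The steepest fibrillar change was that of COL11A1 (ENSG00000060718, chromosome 1, 103342023 to 103574428, reverse strand), whose chain nucleates cartilage fibrils. COL11A1 was at 0.704, 0.826 and 0.746 FPKM without and 24.7, 53.3 and 85.7 FPKM with doxycycline, a 71.95-fold ratio of the means. The EWSR1::FLI1 low libraries differed among themselves, with replicate 3 at the top and replicate 1 at the bottom, yet all lay far above the other group. Its log2 fold change was 4.81 ± 0.37 (SE; limma, adjusted p = 0.000116), and 5.82 with a pseudocount of 0.1. COL5A1 (ENSG00000130635, chromosome 9, 137533649 to 137736689, forward strand), of the type V collagen that starts and limits type I fibrils, was at 4.73, 3.44 and 5.22 FPKM without and 17.1, 25.5 and 17.7 FPKM with doxycycline. No values overlapped, and the log2 fold change was 1.94 ± 0.22 (SE; limma, adjusted p = 0.000566). Its partner chain COL5A2 was already abundant without doxycycline and differed less between the groups: it was at 84.7, 73.2 and 69.2 FPKM without and 128, 121 and 124 FPKM with doxycycline. The log2 fold change of COL5A2 was 0.72 ± 0.17 (SE; limma, adjusted p = 0.0185), which missed the limit although the groups did not overlap, and the adjusted p was 0.00596 without EWSR1::FLI1 low replicate 1. The third type V chain, COL5A3, was at 2.02, 1.87 and 2.405 FPKM without and 4.99, 21.7 and 6.66 FPKM with doxycycline. For COL5A3 the spread in EWSR1::FLI1 low cells was wide, replicate 2 being over the other replicates, and the log2 fold change of 1.71 ± 0.42 (SE; limma, adjusted p = 0.0233) was not called. Without EWSR1::FLI1 low replicate 1 it was 2.09 (adjusted p = 0.00613, limma), and without replicate 2 it was 1.13 (adjusted p = 0.00581, limma).

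The other fibrillar genes stayed low. COL27A1 and COL24A1, chains of minor fibrillar types, had log2 fold changes of -0.28 (adjusted p = 0.262, limma) and 0.15 (adjusted p = 0.562, limma). COL27A1 averaged 2.59 ± 0.1597 FPKM in control and 1.97 ± 0.395 FPKM in knockdown cells (SD, n = 3), with overlapping groups. COL2A1, the main fibrillar collagen of cartilage, and COL11A2, a partner chain of COL11A1 in type XI collagen, were too low to be tested. COL2A1 had 7 to 25 reads per library and COL11A2 20 to 40. Neither exceeded 0.553 FPKM in any library. In EWSR1::FLI1 high replicate 1, 28 reads of COL11A2 gave 0.0623 FPKM, whereas 12 reads of COL2A1 gave 0.225 FPKM. The FPKM of COL11A2 were thus low for its reads, and the reason was not tested.

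**Figure D2:**
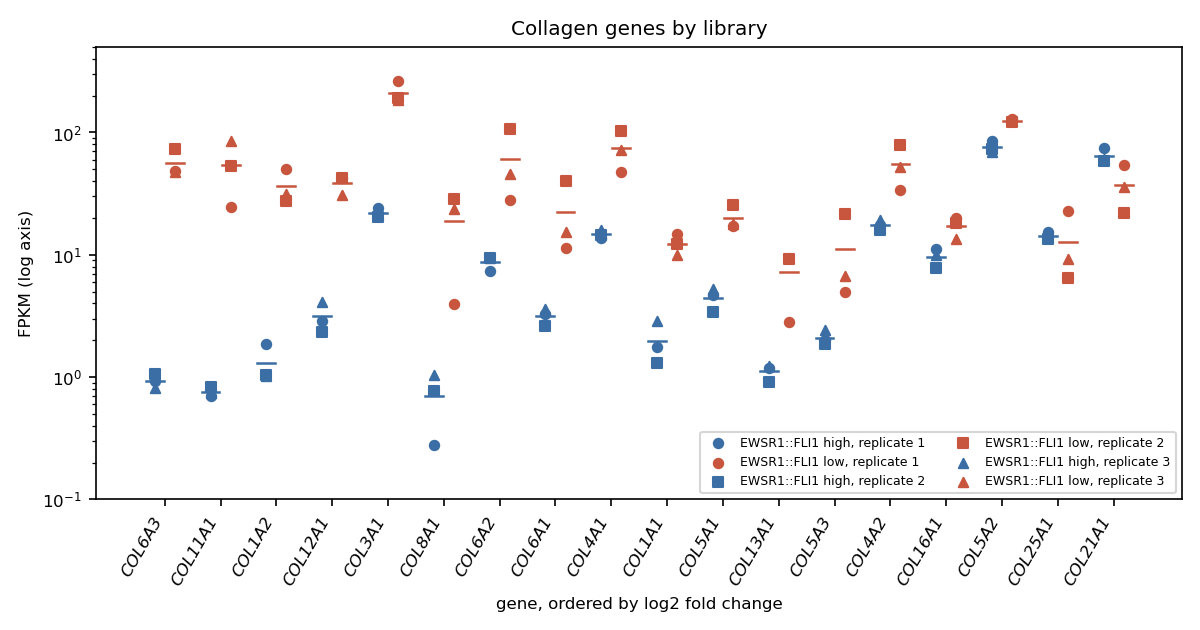
FPKM (log axis) of the 18 collagen genes with an adjusted p under 0.01 or a mean of at least 5 FPKM, ordered by log2 fold change, with 1 symbol per library (blue EWSR1::FLI1 high, red EWSR1::FLI1 low) and a line at each mean. The red symbols lie above the blue ones for 16 genes, COL25A1 overlaps, and for COL21A1 the red symbols lie below the blue ones.

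Of the basement membrane genes, the widely expressed pair COL4A1 and COL4A2 rose, while the other chains stayed low. COL4A1 (ENSG00000187498, chromosome 13, 110801310 to 110959504, reverse strand) was at 13.7, 14.4 and 16.1 FPKM without doxycycline (replicates 1, 2 and 3) and reached 47.1, 103 and 72.5 FPKM with it. COL4A2 (ENSG00000134871, chromosome 13, 110958159 to 111165556, forward strand) was at 17.6, 15.8 and 19.1 FPKM without and 33.9, 78.6 and 52.7 FPKM with doxycycline. For both genes the libraries of the groups did not overlap, and EWSR1::FLI1 low replicate 2 was the highest and replicate 1 the lowest of its group. The log2 fold changes were 2.19 ± 0.27 (SE; limma, adjusted p = 0.000957) for COL4A1 and 1.52 ± 0.29 (SE; limma, adjusted p = 0.00744) for COL4A2. The call of COL4A2 was lost in every repeat but that without EWSR1::FLI1 low replicate 1, with an adjusted p of at most 0.0412. COL4A1 and COL4A2 lie head to head and overlap by 1346 bases on opposite strands in the annotation. Reads in this overlap could be exchanged between them if strand was not used in counting, which the sources used here do not state. COL4A5 averaged 0.552 ± 0.0938 and 1.15 ± 0.408 FPKM (SD, n = 3) and was not called (log2 fold change 0.46, adjusted p = 0.115, limma). COL4A3, COL4A4 and COL4A6, chains known from the basement membranes of kidney and other specialized sites, averaged at most 0.327 FPKM in either group.

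The promoter shared by COL4A1 and COL4A2 and those of COL11A1 and COL6A3, the genes with the largest fold changes, are printed from RefSeq (GRCh38.p14, a different build from the gene positions given in GRCh37), 5′ to 3′ from 250 bases before to 50 bases after the annotated start. Capitals mark GGAA, the core that ETS factors such as FLI1 bind, and CCAAT, the box of the factor NF-Y, on either strand.
COL4A1 (chr13:110307108-110307407, - strand): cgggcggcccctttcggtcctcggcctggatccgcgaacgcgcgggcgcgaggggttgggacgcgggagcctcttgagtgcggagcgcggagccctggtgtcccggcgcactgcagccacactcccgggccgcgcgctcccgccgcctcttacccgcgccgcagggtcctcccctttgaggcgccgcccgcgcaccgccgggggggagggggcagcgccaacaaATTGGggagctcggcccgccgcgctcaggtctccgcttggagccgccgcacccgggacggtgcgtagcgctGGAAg
COL11A1 (chr1:103108473-103108772, - strand): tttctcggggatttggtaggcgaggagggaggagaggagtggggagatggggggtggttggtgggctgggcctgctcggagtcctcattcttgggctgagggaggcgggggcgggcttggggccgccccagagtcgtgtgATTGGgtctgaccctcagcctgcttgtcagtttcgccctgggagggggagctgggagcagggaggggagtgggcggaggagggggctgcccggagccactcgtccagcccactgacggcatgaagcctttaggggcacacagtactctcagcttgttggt
COL6A3 (chr2:237414115-237414414, - strand): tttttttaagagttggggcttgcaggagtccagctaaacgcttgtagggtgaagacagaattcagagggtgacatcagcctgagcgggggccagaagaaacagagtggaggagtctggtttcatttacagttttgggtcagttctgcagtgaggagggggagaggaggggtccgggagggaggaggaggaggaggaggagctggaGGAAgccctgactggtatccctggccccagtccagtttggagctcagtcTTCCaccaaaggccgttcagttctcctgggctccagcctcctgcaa
The COL4A2 window covers 226 of the 300 bases of the COL4A1 window on the opposite strand and holds the same CCAAT box. The COL4A1 window holds 1 GGAA match, the COL6A3 window 2 and the COL11A1 window 0. Windows were listed for 32 of the 44 collagen genes, 44 windows in all. Only 8 of the genes called higher were among them, and COL1A1, COL1A2, COL3A1, COL6A1 and COL8A1 were missing. GGAA occurred in 95.5% of the collagen windows and 95.5% of all 35116 windows, and CCAAT in 31.8% and 34.6%. The tandem GGAAGGAA, the unit of the microsatellites that EWSR1::FLI1 is known to bind, was in 0 of the 44 collagen windows and in 3.67% of all windows. TATAAA was in 18.2% and 11.5%, and the AP-1 motif TGANTCA in 2.27% and 7.71%, each on both strands. GGAAGGAA contains GGAA, and such matches describe letters in these windows only.

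Of the type VI chains that form beaded microfilaments, COL6A1, COL6A2 and COL6A3 rose, COL6A3 from the lowest start among these. All 5 genes of the class were tested, and COL6A1, COL6A2 and COL6A3 were called higher. COL6A3 (ENSG00000163359, chromosome 2, 238232646 to 238322971, reverse strand) was at 0.926, 1.07 and 0.809 FPKM without doxycycline (replicates 1, 2 and 3) and reached 48.6, 72.7 and 47.4 FPKM with it. Its reads went from 104, 91 and 67 to 4626, 6375 and 7902, without overlap, a 60.2-fold ratio of the means. The fold change of 4.86 ± 0.21 (SE; limma, adjusted p = 8.47e-06) on the log2 scale was next to that of COL11A1, within its standard error. With a pseudocount of 0.1 it was 5.75, below that of COL11A1. COL6A1 (ENSG00000142156, chromosome 21, 47401684 to 47424964, forward strand) was at 3.29, 2.61 and 3.57 FPKM without and 11.4, 39.97 and 15.4 FPKM with doxycycline. COL6A2 (ENSG00000142173, chromosome 21, 47518026 to 47552762, forward strand) was at 7.33, 9.36 and 9.395 FPKM without and 28.05, 108 and 45.3 FPKM with doxycycline. Both genes were highest in EWSR1::FLI1 low replicate 2, 3.49-fold and 3.84-fold above replicate 1, and replicate 1 still lay above all controls. Fold changes on the log2 scale were 2.29 ± 0.39 (SE; limma, adjusted p = 0.00445) and 2.45 ± 0.41 (SE; limma, adjusted p = 0.00447). Their adjusted p rose to at most 0.0248 and 0.0222 in repeats without 1 control library or without EWSR1::FLI1 low replicate 3. COL6A5 and COL6A6, the later described chains that lie in tandem on chromosome 3, stayed under 1 FPKM in every library, with log2 fold changes of 0.23 and 0.0097 and adjusted p of 0.337 and 0.978 (limma).

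Among the FACIT genes, COL12A1 rose and the others were not called. Of 10 genes 7 were tested, 1 was called higher and none lower, and the median log2 fold change was 0.57. The called gene was COL12A1 (ENSG00000111799, chromosome 6, 75794042 to 75915983, reverse strand), whose long chain bridges type I fibrils in tendon and ligament. It was at 2.897, 2.34 and 4.15 FPKM without doxycycline (replicates 1, 2 and 3) and reached 42.1, 42.3 and 31.1 FPKM with it, 3.13 ± 0.926 against 38.5 ± 6.41 FPKM (SD, n = 3). Its log2 fold change was 3.27 ± 0.22 (SE; limma, adjusted p = 6.30e-05), a 12.3-fold ratio of the means. COL21A1 (ENSG00000124749, chromosome 6, 55921388 to 56258892, reverse strand), a FACIT chain of vessel walls, had the lowest fold change of the 32 collagen genes tested. It was at 75.1, 58.6 and 60.8 FPKM without and 54.1, 21.8 and 35.8 FPKM with doxycycline. All knockdown libraries lay below all control libraries, and replicate 2 was the lowest. The log2 fold change of -0.87 ± 0.30 (SE; limma, adjusted p = 0.0775) did not pass the limit. It was -1.18 with an adjusted p of 0.00561 (limma) without EWSR1::FLI1 low replicate 1, and -0.89 with an adjusted p of 0.0408 on recovered reads (limma-voom).

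COL16A1 (ENSG00000084636, chromosome 1, 32117864 to 32169920, reverse strand), a FACIT chain found beside fibrils and microfibrils, was at 11.1, 7.796 and 9.92 FPKM without and 19.96, 18.3 and 13.4 FPKM with doxycycline. The groups did not overlap, but its log2 fold change of 0.78 ± 0.21 (SE; limma, adjusted p = 0.0342) missed the limit. COL9A2 and COL9A3, chains of the type IX collagen that coats cartilage fibrils, had log2 fold changes of 0.43 (adjusted p = 0.338, limma) and 0.57 (adjusted p = 0.0493, limma). COL19A1 and COL22A1 averaged under 1 FPKM without doxycycline and 0.947 and 1.48 FPKM with it, and neither was called (adjusted p = 0.152 and 0.0534, limma). For COL22A1, which sits at tissue junctions such as that of muscle and tendon, the EWSR1::FLI1 low values were 0.619, 2.74 and 1.08 FPKM, highest in replicate 2.

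Outside these classes, 1 short-chain and 1 transmembrane collagen were called. COL8A1 (ENSG00000144810, chromosome 3, 99357319 to 99518070, forward strand), which forms the hexagonal lattice of Descemet's membrane in the cornea and is made by vessel wall cells, was at 0.277, 0.771 and 1.04 FPKM without doxycycline (replicates 1, 2 and 3) and reached 3.97, 28.4 and 23.9 FPKM with it. Replicate 1 of the EWSR1::FLI1 low group was far under the others, and all lay above the EWSR1::FLI1 high group, where 9, 19 and 25 reads were counted. The log2 fold change was 3.21 ± 0.58 (SE; limma, adjusted p = 0.0064) and went from 2.74 to 4.02 when 1 library was left out. COL13A1 (ENSG00000197467, chromosome 10, 71561636 to 71724031, forward strand), a transmembrane collagen of cell-matrix and neuromuscular junctions, was at 1.18, 0.9199 and 1.23 FPKM without and 2.796, 9.29 and 9.43 FPKM with doxycycline. Its log2 fold change was 1.81 ± 0.36 (SE; limma, adjusted p = 0.00907), close to the limit. In the 5 repeats without 1 control library or without EWSR1::FLI1 low replicate 2 or 3, neither COL8A1 nor COL13A1 passed, with an adjusted p of at most 0.0312 and 0.0418 (limma).

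COL25A1 (ENSG00000188517, chromosome 4, 109729881 to 110223908, reverse strand), a transmembrane collagen known from motor neuron innervation and from amyloid plaques, was at 15.3, 13.5 and 13.9 FPKM without and 22.8, 6.45 and 9.17 FPKM with doxycycline. In EWSR1::FLI1 high cells the values were close together, whereas in EWSR1::FLI1 low cells replicate 1 lay above and replicates 2 and 3 below all of them. The log2 fold change was -0.32 ± 0.37 (SE; limma, adjusted p = 0.585), and it was -0.80 (adjusted p = 0.011, limma) without EWSR1::FLI1 low replicate 1 and 0.031 without replicate 2. The multiplexins COL15A1 and COL18A1, basement membrane collagens whose C-terminal fragments are known as restin and endostatin, averaged 1.46 ± 0.881 and 3.05 ± 1.47 FPKM with doxycycline, against 0.274 ± 0.0546 and 0.898 ± 0.0758 FPKM without (SD, n = 3). Neither passed the limit, with adjusted p of 0.0345 and 0.01899 (limma), although their groups did not overlap. Without EWSR1::FLI1 low replicate 1 both were called, with adjusted p of 0.00768 and 0.00463 (limma). COL7A1, which builds the anchoring fibrils under the epidermis, was at 1.52, 7.39 and 2.66 FPKM with and 2.06, 2.24 and 1.69 FPKM without doxycycline, with overlapping groups (log2 fold change 0.51, adjusted p = 0.376, limma). COL26A1 and COL28A1, placed in none of the classes, were not called (adjusted p = 0.165 and 0.897, limma), and for COL26A1 EWSR1::FLI1 low replicate 1 held 1.89 FPKM against 0.483 and 0.508 in the others.

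The 12 collagen genes that were not tested averaged from 0.0722 FPKM (COL11A2, low for its reads) to 0.4201 FPKM, with 0 to 50 reads per gene and library. Besides those named, they were COL8A2, COL9A1, COL10A1, COL14A1, COL17A1, COL20A1 and COL23A1. In 3 of the 12, COL4A3, COL14A1 and COL17A1, the groups did not overlap and the knockdown libraries were the higher, as in 8.68% of the 8984 genes listed under 0.5 FPKM. EWSR1::FLI1 low replicate 1 held the highest value for 8 of the 12, as it did for many lowly expressed genes overall. COL20A1 had 0 reads in EWSR1::FLI1 high replicate 1, which allows up to 0.0685 FPKM at a floor of 3 reads, and COL23A1 had 0 in EWSR1::FLI1 high replicate 3, which allows up to 0.126 FPKM; these floors cover counting error only. COL10A1, the short-chain collagen of hypertrophic cartilage, was at 0.666, 0.648 and 0.353 FPKM without and 0.479, 0.296 and 0.07802 FPKM with doxycycline, with overlapping groups.

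Summed over the 44 genes, collagen transcripts were a larger part of all transcripts in each knockdown library than in each control library, and different genes led the sum. The sum was 284, 245 and 257 FPKM without and 842, 1014 and 837 FPKM with doxycycline. As a share of all reads on genes, collagen reads were 0.171, 0.149 and 0.141% and 0.692, 0.631 and 0.509%. Without doxycycline, COL5A2 and COL21A1 were the most abundant collagen transcripts. COL5A2 held 29.8, 29.8 and 26.9% of the collagen FPKM and COL21A1 26.5, 23.9 and 23.7% in the EWSR1::FLI1 high replicates. With doxycycline, COL3A1 came first in each library, with 31.1, 18.9 and 21.9%, against 8.43, 8.23 and 8.3% without. COL5A2 then held 15.2, 11.9 and 14.8% and COL21A1 6.42, 2.15 and 4.27%. The means of COL3A1 and COL5A2, the first and second collagen transcripts of EWSR1::FLI1 low cells, were 212 ± 43.3 and 124 ± 3.74 FPKM (SD, n = 3), apart by more than their spread. The third to seventh, COL4A1, COL6A2, COL6A3, COL4A2 and COL11A1, had means from 74.1 down to 54.6 FPKM and SDs from 14.2 to 41.9 FPKM, so their order was within their spread. In EWSR1::FLI1 high cells, COL5A2 (75.7 ± 8.03 FPKM) and COL21A1 (64.8 ± 8.95 FPKM) were followed by COL3A1 at 21.8 ± 1.91 FPKM (SD, n = 3).

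By class, fibrillar genes summed to 123, 105 and 106 FPKM without and 505, 456 and 462 FPKM with doxycycline, the largest class in each. Basement membrane genes summed to 32.6, 31.4 and 36.2 and 83.99, 183 and 127 FPKM. Beaded filament genes summed to 12.7, 14.2 and 14.5 and 89.6, 221 and 109 FPKM. FACIT genes summed to 93.2, 73.6 and 79.02 and 126, 92.1 and 88.2 FPKM, with the mean of COL12A1 higher and that of COL21A1 lower with doxycycline. These sums describe the libraries and were not tested.

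**Figure D3:**
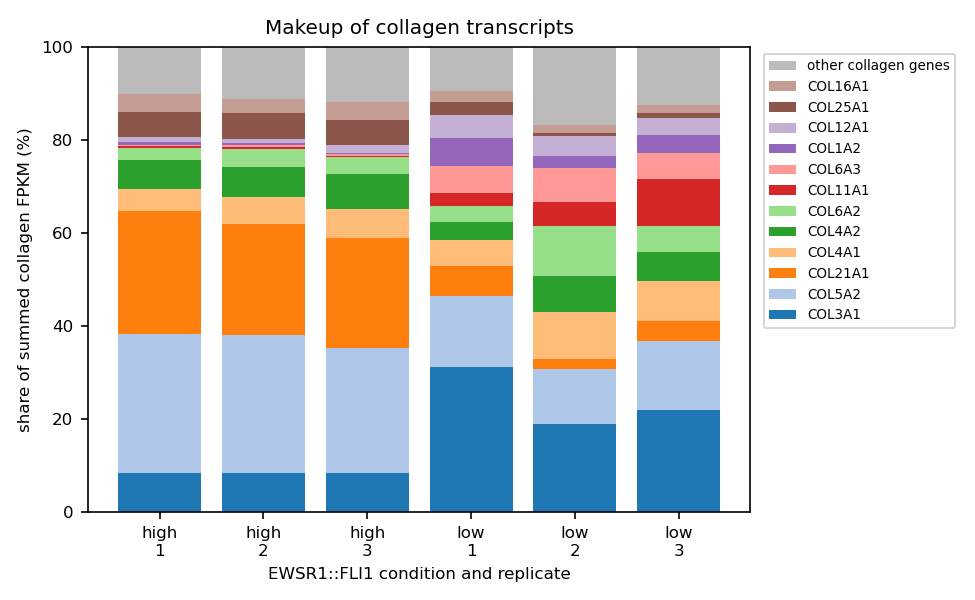
Share of the summed collagen FPKM (percent, stacked bars) held by 12 collagen genes and by the other collagen genes together in each of the 6 libraries. COL5A2 and COL21A1 fill over 50% of each EWSR1::FLI1 high bar, and COL3A1 is the largest segment of each EWSR1::FLI1 low bar.

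Between chains of the same collagen type, RNA ratios did not overlap between the groups in 4 of 5 pairs, but too few libraries exist for any to be called. How often the ratios of other pairs of genes separate in this way was not determined. For these 5 pairs of chains the ratio of FPKM was taken within each library, which does not depend on the scaling between libraries, and compared with an exact permutation test over the 6 libraries (two-sided), where 3 against 3 cannot go below p = 0.1. In the common type I helix an α1 chain is present in 2 copies for each α2 chain. The COL1A1/COL1A2 ratio of RNA was 0.947, 1.26 and 2.78 in the EWSR1::FLI1 high and 0.296, 0.443 and 0.318 in the EWSR1::FLI1 low replicates. It was lower in each EWSR1::FLI1 low library, by 2.10 on the log2 scale. The COL4A1/COL4A2 ratio was 0.777, 0.909 and 0.843 without and 1.39, 1.304 and 1.38 with doxycycline, a shift of 0.69 with little spread (SD on the log2 scale 0.113 and 0.0495, n = 3). The COL5A1/COL5A2 ratio was 0.0558, 0.0469 and 0.0755 without and 0.133, 0.2104 and 0.143 with doxycycline, a shift of 1.45. The COL6A3/COL6A1 ratio moved furthest, from 0.281, 0.408 and 0.226 to 4.25, 1.82 and 3.08, a shift of 3.28. In these 4 pairs the groups did not overlap, and each had p = 0.1 in the exact permutation test, the smallest possible (adjusted p = 0.125 over the 5 ratios). The COL6A1/COL6A2 ratio was 0.449, 0.279 and 0.381 without and 0.408, 0.371 and 0.3397 with doxycycline, with overlapping values and a shift of 0.036 (p = 0.9, exact permutation test). COL6A1 and COL6A2 lie in tandem on chromosome 21, 93061 bases apart.

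**Figure D4:**
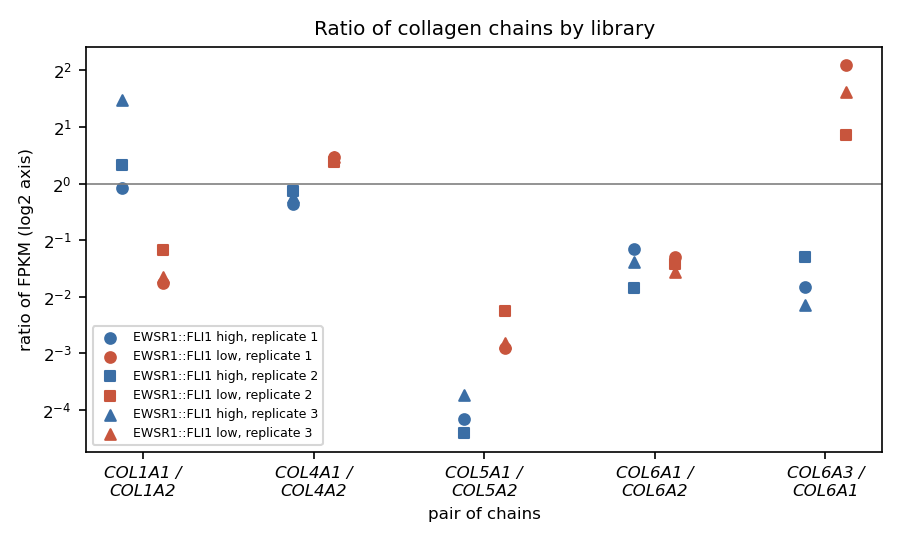
Ratio of FPKM between collagen chains (log2 axis) in each library for 5 pairs, EWSR1::FLI1 high in blue and EWSR1::FLI1 low in red. The colors separate in 4 pairs, upward for COL4A1/COL4A2, COL5A1/COL5A2 and COL6A3/COL6A1 and downward for COL1A1/COL1A2, and mix for COL6A1/COL6A2.

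The collagen genes also differed in how they varied among the EWSR1::FLI1 low libraries. Of the 13 genes called higher, replicate 2 was the highest of the group for 8 and replicate 1 for 3, while replicate 1 was the lowest for 8. Over all 700 genes called higher, replicate 2 was the highest for 46%, and replicate 1 was the highest for 20.7% and the lowest for 59.6%. The type I and III genes COL1A1, COL1A2 and COL3A1 were those highest in replicate 1, at 1.22, 1.82 and 1.37 times their level in replicate 2. COL21A1 and COL25A1, neither of them called, were also highest there, at 2.48 and 3.53 times. In contrast, replicate 2 exceeded replicate 1 7.16-fold for COL8A1, 4.34-fold for COL5A3, 3.32-fold for COL13A1 and 2.17-fold for COL4A1. COL5A2 and COL12A1 were level between them, with ratios of 0.942 and 1.004. FLI1 itself was lowest in replicate 1 and highest in replicate 2 of the EWSR1::FLI1 low group, and whether this or the depth of the libraries had a part in the pattern was not tested.

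**Figure D5:**
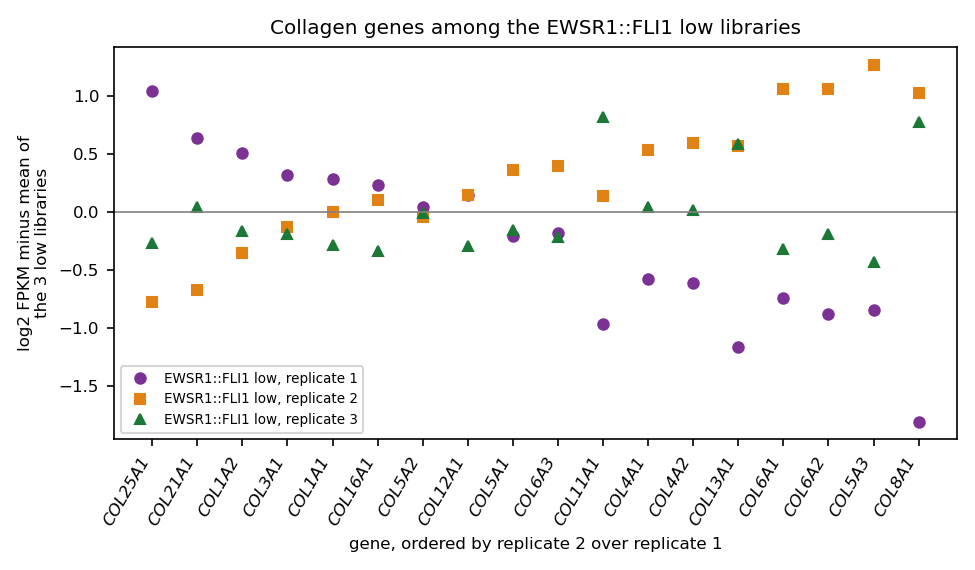
Log2 FPKM of 18 collagen genes in each EWSR1::FLI1 low library minus the gene's mean over the 3 libraries (y axis), with genes ordered by replicate 2 over replicate 1. Replicate 1 runs from the top at the left (COL25A1, COL21A1, COL1A2, COL3A1) to the bottom at the right (COL5A3, COL8A1), opposite to replicate 2. These opposite courses follow from the order of the genes and are not a result.

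Making collagen needs enzymes and chaperones of the endoplasmic reticulum, proteases that trim the procollagen ends, and crosslinking oxidases, and cells sense the product through integrins and other receptors. A list of 28 such biosynthesis genes and 10 receptors, chosen with earlier results of these data known, was followed in the same fit. Of the biosynthesis genes 26 were tested, 8 were called higher and none lower, and of the receptors 8 were tested, 2 were called higher and none lower. At an unadjusted p under 0.05 none was lower either, limma-voom on recovered reads also called 0 lower, and sample quality weights called 1. Without 1 library the 10 calls became 6 (EWSR1::FLI1 high replicate 2 or 3 left out) to 23 (EWSR1::FLI1 low replicate 1 left out). In the fit with all libraries they made up 29.4% of the 34 genes tested, against the 4.51% of all genes given above. The median log2 fold changes were 0.80 and 1.11. LOX, the oxidase that starts collagen crosslinks, was at 49.1, 191 and 143 FPKM with and 1.61, 1.603 and 2.01 FPKM without doxycycline, and its log2 fold change was 5.35 ± 0.43 (SE; limma, adjusted p = 0.000134). LOXL2, a related oxidase acting also on type IV collagen, was at 44.3, 105 and 59.8 FPKM with and 4.001, 3.69 and 6.34 FPKM without doxycycline (log2 fold change 3.57, adjusted p = 0.000212, limma). ITGA11, the α chain of a fibrillar collagen integrin, was at 6.91, 14.04 and 8.79 FPKM with and 0.1902, 0.276 and 0.155 FPKM without doxycycline (log2 fold change 3.13, adjusted p = 1.00e-04, limma). P4HA2, a prolyl 4-hydroxylase subunit that stabilizes the helix, was at 28.9, 82.4 and 56.2 FPKM with and 4.37, 5.98 and 6.11 FPKM without doxycycline (log2 fold change 3.02, adjusted p = 0.000612, limma). BMP1, the protease that removes the C-propeptide of fibrillar procollagens, was at 8.67, 18.05 and 15.2 FPKM with and 2.68, 2.67 and 3.02 FPKM without doxycycline (log2 fold change 1.93, adjusted p = 0.00117, limma).

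In all 5, picked as the largest calls, the groups did not overlap. Over the 34 genes tested, all knockdown libraries lay above all control libraries for 29, against 17.5% of all genes tested. Within the EWSR1::FLI1 low group replicate 1 was the lowest for all 5, as for 59.6% of all genes called higher. COL1A1, COL1A2 and COL3A1, in contrast, were highest there. All 5 kept their call in each of the 6 repeats without 1 library. The other calls were PLOD1, P3H1, FKBP10, ADAMTS2 and MRC2, of which FKBP10, a procollagen chaperone, kept its call in every repeat (log2 fold change 1.71). PLOD1 and ADAMTS2 lost theirs in 5 of the 6 repeats, P3H1 in 3 and MRC2 in 2. ADAMTS2, which trims the N-propeptide, was low: its log2 fold change was 0.95, but 2.33 with a pseudocount of 0.1. ADAMTS2 and ITGA11 averaged 0.168 and 0.207 FPKM without doxycycline and passed the filter only through their knockdown values. The same holds for P4HA3, ADAMTS3 and ITGA10, which were not called. All of these are counted among the 29 without overlap, and ADAMTS2 and ITGA11 also among the 10 calls. SERPINH1, the collagen chaperone HSP47, was not called, at a fold change of 0.80 on the log2 scale (limma, adjusted p = 0.0197). DDR2, a receptor kinase for fibrillar collagen, was at 29.8, 35.1 and 33.2 FPKM with and 33.6, 28.2 and 32.7 FPKM without doxycycline, with overlapping groups and little difference on the log2 scale (0.053; limma, adjusted p = 0.872). COLGALT2, a collagen galactosyltransferase, was the only 1 of the 34 with a fold change below 0 (-0.40, adjusted p = 0.201, limma).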

How the data were processed

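RNAseq libraries (ScriptSeq v2, after removal of ribosomal RNA) were aligned by the authors to GRCh37 with STAR 2.5.0b and quantified with Cufflinks 2.2.1, versions as in the submitters' processing notes. Per symbol and library, FPKM is the unit the authors deposited. They also deposited a DESeq2 result table (1.6.3), of which only the mean signal per gene was used here (the authors' mean of normalized counts). Its other columns hold the authors' own comparison and were not used. Samples were grouped by their titles. Scaling FPKM to that mean gave whole reads (within 0.1) for 100.0% of values above 0, and size factors from 0.829 to 1.67.

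Genes with a mean of at least 0.5 FPKM (15504 of 26364) were tested with limma 3.58.1 (R 4.3.3, eBayes with trend) on log2(FPKM + 1), and p-values were adjusted after Benjamini-Hochberg (limit 0.01). In data simulated for this comparison over 15504 genes, 87% of 200 genes with a true log2 change of 2.5 were called, with 2 of 15304 unchanged genes. The simulation drew normal noise with 1 spread per gene for both groups, and its changed genes had a mean log2(FPKM + 1) above 2. Pairs of libraries of 1 condition differed by more than sampling noise. The chi-square per degree of freedom was 4.25 to 6.27 between EWSR1::FLI1 high and 20.2 to 31.5 between EWSR1::FLI1 low libraries. The simulated rates therefore need not hold for these data. Gene positions are from GENCODE 44 lifted to GRCh37. Values in every library were given for COL1A1, COL1A2, COL3A1, each collagen gene called and each averaging at least 5 FPKM, and for the 5 largest calls of the biosynthesis and receptor list. Partner chains and FLI1 were added, and COL7A1, COL10A1, COL22A1, COL26A1, SERPINH1, DDR2 and COLGALT2 were chosen after their values were seen. The members and lists were chosen with earlier results of these data known. A marker gene of the hematopoietic list is not reported here. Other steps used Python 3.11.15, pandas 2.3.3, scipy 1.17.1 and matplotlib 3.10.9.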

Additional observations from a re-analysis of the deposited data

How the results depend on the processing

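Of the 13 collagen genes called higher, 13 also passed with a pseudocount of 0.1, a mean of at least 1 FPKM, eBayes without trend, and limma-voom on recovered reads, which called 17. Median-ratio scaling also called 13, with 700 higher and 522 lower of all genes, as in the report. It could change little, because the deposited FPKM already carry a size factor per library, so it is no separate check. Quantile normalization lost COL13A1. Without a filter on low values 8 were called (456 higher and 297 lower of all genes, with 24488 genes tested, among them all 44 collagen genes). Sample quality weights called 22 higher and 2 lower (2488 and 2257 of all genes), a limit of 2.5 on the log2 fold change left 6 (126 and 32), and an adjusted p under 0.05 gave 1530 and 1537 of all genes. In the weighted fit EWSR1::FLI1 low replicates 1, 2 and 3 had weights of 0.172, 2.79 and 0.463, so its knockdown side rests largely on replicate 2. Of all genes, quantile normalization called 1000 lower, limma-voom 829 and the replicate block 786, and the share of higher among called genes was 49.8% with quantile normalization against 57.3% in the report, and without 1 library it went from 37.6% (EWSR1::FLI1 low replicate 3, with 415 higher and 689 lower) to 67.2% (EWSR1::FLI1 high replicate 3). The cause of these shifts was not tested. Of the biosynthesis and receptor genes, 10 were called higher in the report, 17 with quantile normalization, 27 higher and 1 lower with sample quality weights, 23 at an adjusted p under 0.05 and 4 with the fold limit. Leaving out 1 library gave 8 to 17 collagen genes higher and 0 to 1 lower, 6 to 23 of the biosynthesis and receptor genes higher, and 308 to 1527 of all genes higher and 157 to 807 lower.

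Under the replicate block, the same 13 collagen genes were called, and 916 of all genes were higher. Deviations of same-numbered libraries correlated with r = 0.271, 0.0889 and 0.124, and those of differently numbered libraries with r from -0.289 to 0.189. The numbers were not taken as pairs because not all of the former were over 0.1, a limit set by choice. These values do not settle whether the libraries are paired. A block leaves the ratio differences as they are by construction (-2.10 for COL1A1/COL1A2); the exact permutation p of the 4 ratios without overlap was 0.25 within the block, the smallest it allows.

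The COL6A1/COL6A2 difference turned to -0.16 with 1 FPKM added to each chain and ranged from -0.15 to 0.19 when 1 library was left out. The other 4 ratios kept their direction. The fold change of COL6A6 turned to -0.093 with quantile normalization, -0.015 with limma-voom, -0.12 with sample weights and -0.066 to 0.064 in the 5 fits without 1 library where it passed the filter. That of COL28A1 turned to -0.047 with quantile normalization and ranged from -0.076 to 0.12 in the 2 fits without 1 library where it passed the filter, and that of COL25A1 ranged from -0.80 to 0.031 over all 6. The 12 genes left untested fell under the filter on mean FPKM.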
